A study of Mus musculus with 9 samples.

Results

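The genes described are 7 matrix metalloproteinases (Mmp2, Mmp3, Mmp9, Mmp12, Mmp13, Mmp14 and Mmp19) and 3 of their tissue inhibitors (Timp1, Timp2 and Timp3), taken by symbol as 10 of the 54532 genes in a table of RNA sequencing values from mouse aorta. The libraries fall into 3 groups of 3 aortas, and every animal carried the genotype Apoe-/-, which raises plasma cholesterol and leads to atherosclerosis. In the HFD_IO group the mice ate a high fat diet and were injected intraperitoneally with ammonium iron(III) citrate. In the HFD group they ate the high fat diet with no iron named, and in the CD group they ate chow. Mice were 6 to 8 weeks old when a regimen of 24 weeks began, and the series title names iron overload in atherosclerosis as its question. The labels describe no vehicle injection for the HFD and CD groups, no Apoe-competent group, and no statement on whether an aorta came from 1 animal or a pool, so p-values measure the spread between these aortas.

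Matrix metalloproteinases are zinc-dependent endopeptidases that cut collagen, elastin, proteoglycans and other proteins outside the cell. Most are secreted as inactive proenzymes that other proteases activate, and TIMPs block them by binding the catalytic site. In atherosclerotic arteries both families are known products of macrophages, smooth muscle cells and fibroblasts, and they are studied for their part in matrix turnover and plaque stability.

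Values are the deposited FPKM, a read count per kilobase of gene and per scaled library size, so levels of different genes can be set side by side. Whole reads could be read back, between 16660963 and 18308450 per library, and the members had 29 (Mmp13) to 42629 (Mmp12) reads in a library. A change is given as the log2 fold of FPKM + 1, its standard error (SE) is that of the limma fit, and a gene is called at an adjusted p under 0.05 over all 13883 genes with at least 1 FPKM in at least 3 libraries. All 10 members met that minimum, 9 of them in every library and Mmp13 in 7 of the 9 libraries. Apoe mRNA was listed at 17.5 to 21.9 FPKM in HFD_IO, 9.73 to 15.1 in HFD and 10.9 to 14.5 in CD, which does not separate intact from disrupted transcripts. The summed FPKM of 12 smooth muscle markers was 3459 to 5715 in HFD_IO, 9810 to 12180 in HFD and 7116 to 8131 in CD, and none of these markers was listed at 0 throughout. Under TPM scaling, the median log2 change over the whole table became -0.30 in HFD against CD, 0.14 in HFD_IO against HFD and -0.23 in HFD_IO against CD. That rescaling turned 3030 higher and 2440 lower genes into 1018 and 4948 in the first comparison, 1956 and 2013 into 2373 and 1160 in the second, and 2427 and 2089 into 1528 and 3800 in the third.

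Most of the 7 metalloproteinases described had more mRNA in aortas of iron-injected mice than in aortas of mice on the high fat diet alone. In HFD_IO against HFD, 6 of the 7 metalloproteinases rose, led by the collagenase Mmp13, and none of the 3 inhibitors passed the test. The members were chosen with earlier results of these data known. Of 8 further Mmp and Timp genes tested, 1 rose and 3 fell in that comparison. In bulk tissue, more cells of a type and more RNA per cell cannot be told apart, and macrophage markers, which also rose, are given after the members. In HFD against CD, Mmp12, Timp1, Mmp19 and Mmp3 rose, of which all but Timp1 also rose in HFD_IO against HFD. Of all genes tested, 14.1% were called higher, 14.5% lower and 28.6% either way in HFD_IO against HFD, and 21.8%, 17.6% and 39.4% in HFD against CD. In HFD_IO against CD, 8 of the 10 members rose, where 17.5% of all genes were higher, 15.0% lower and 32.5% either way. No member fell in any comparison. The median change of the 10 members was 1.05 in HFD_IO against HFD, where that of all genes was -4.19e-05, and 0.38 in HFD against CD, where that of all genes was 0.06. The libraries of HFD_IO lay above those of HFD without overlap in 8 members and below in none, where 24.1% and 24.4% of all genes did so. HFD lay above CD in 5 members and below in 1, beside 28.2% and 22.5% of all genes, and HFD_IO lay above CD in 8 and below in none, beside 24.3% and 22.7%. Each group stands in 2 of the 3 comparisons, so they are not independent.

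**Figure D1:**
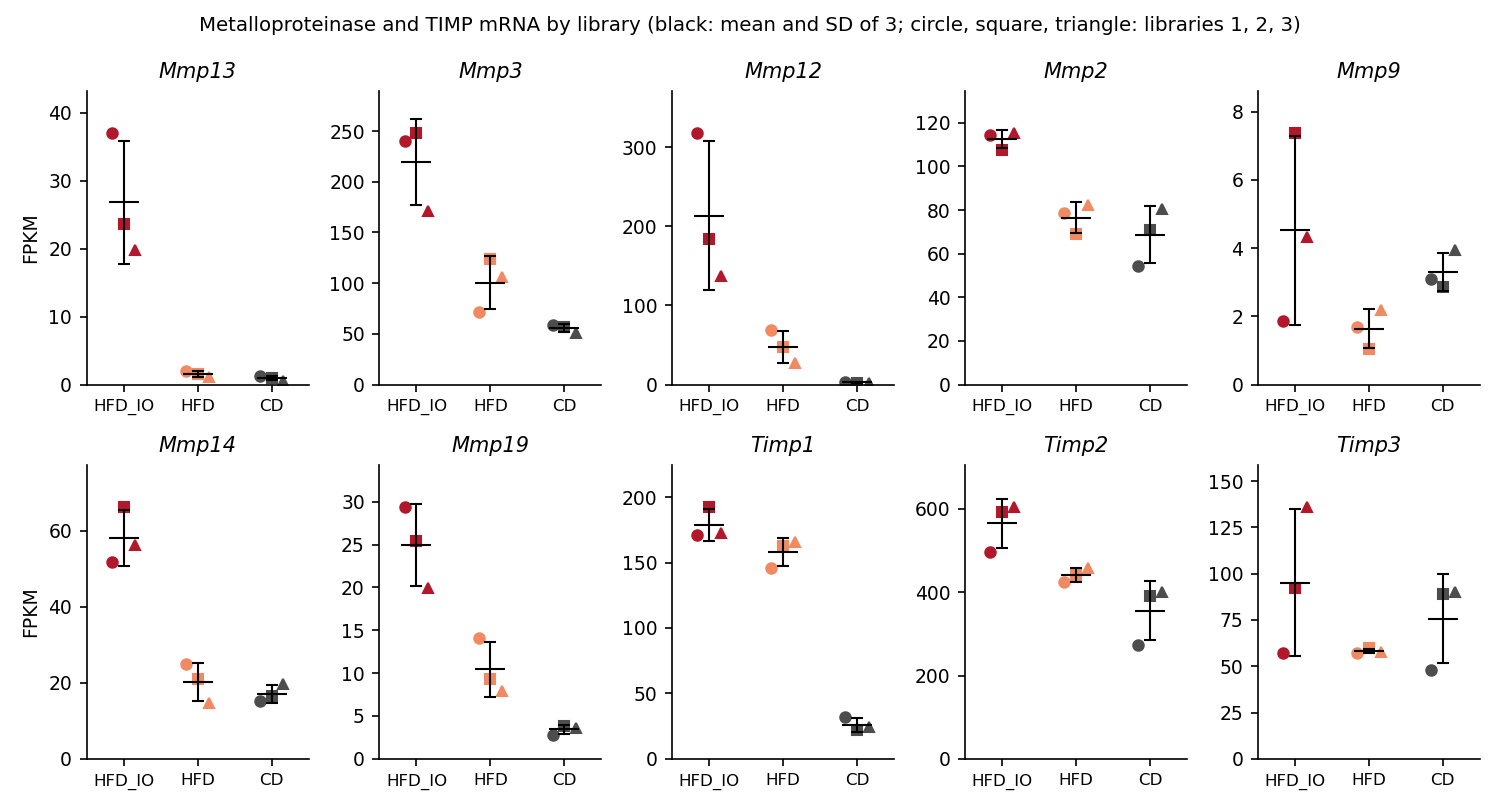
FPKM of the 10 members (vertical axes, linear and starting at 0) in the HFD_IO, HFD and CD groups, with 1 symbol per library and the mean and SD of 3 libraries in black. Mmp13 lies between 19.8 and 37.1 FPKM in HFD_IO and at most 2.03 in the other libraries, while Timp1 lies at 146 FPKM or more in both high fat diet groups and at most 31.7 in CD.

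Mmp13 (ENSMUSG00000050578, chromosome 9, 7272514 to 7283331, GRCm38) encodes collagenase-3, the main collagenase of mice, which cleaves fibrillar collagen. Its level was 37.1, 23.6 and 19.8 FPKM in HFD_IO_1, HFD_IO_2 and HFD_IO_3, against 2.03, 1.54 and 1.15 FPKM in HFD_1, HFD_2 and HFD_3. The CD libraries were at 1.20, 0.91 and 0.60 FPKM. All HFD_IO libraries lay above all others, while the HFD and CD groups overlapped. The means were 26.8 ± 9.10 FPKM in HFD_IO, 1.58 ± 0.441 in HFD and 0.90 ± 0.302 in CD (SD, n = 3 each). The change was 3.40 in HFD_IO against HFD (SE 0.23, adjusted p = 0.000181), rank 1 of 13883 genes ordered by rise. In HFD against CD it was 0.43 (SE 0.23, 95% interval -0.08 to 0.95, adjusted p = 0.159).

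Mmp12 (ENSMUSG00000049723, chromosome 9, 7344381 to 7369499) encodes macrophage elastase, which degrades elastin and is made mainly by macrophages. Its level was 319, 184 and 138 FPKM in the 3 HFD_IO libraries, 68.5, 46.9 and 27.5 FPKM in the HFD libraries and 3.76, 2.45 and 2.30 FPKM in the CD libraries. No group overlapped another. Mmp12 rose by 3.59 in HFD against CD (SE 0.37, adjusted p = 0.000519) and by 2.15 in HFD_IO against HFD (SE 0.37, adjusted p = 0.00442). The ratio of mean FPKM was 75.3 for HFD_IO over CD. In CD it was among the scarce members, below Mmp9 in 2 of 3 libraries, and in HFD_IO_1 it was the highest of the 7 metalloproteinases.

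Mmp3 (ENSMUSG00000043613, chromosome 9, 7445822 to 7455975) encodes stromelysin-1, which cuts proteoglycans and fibronectin and activates other proenzymes. Its level was 240, 249 and 171 FPKM in HFD_IO, 71.9, 124 and 106 FPKM in HFD and 58.6, 57.0 and 51.3 FPKM in CD. The groups did not overlap, although HFD_1 lay closer to the CD libraries than to HFD_2. The change was 1.14 in HFD_IO against HFD (SE 0.21, adjusted p = 0.00625). In HFD against CD it was 0.81 (SE 0.21, adjusted p = 0.0163), a call lost without CD_3 (0.0575), HFD_2 (0.0584) or HFD_3 (0.0503), after rescaling to TPM (0.117), after quantile normalization (0.12) and once the trend of each library with gene length was taken out (0.0606).

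These 3 genes lie in a cluster of 10 metalloproteinase genes that spans 427 kb of chromosome 9. The stretches of 120 bases before their annotated starts are shown because the 3 genes were all higher in HFD_IO, and the binding sequence of AP-1, a dimer of Fos and Jun proteins, is a textbook element of collagenase and stromelysin promoters. Sequences are from RefSeq on GRCm38.p6, plus strand, with matches to TGACTCA on either strand in capitals, and Mmp12 has 2 annotated starts.
Mmp13 (chr9:7272394-7272513): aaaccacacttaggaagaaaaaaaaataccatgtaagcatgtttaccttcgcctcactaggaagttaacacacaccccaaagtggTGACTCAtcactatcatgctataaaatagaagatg
Mmp3 (chr9:7445702-7445821): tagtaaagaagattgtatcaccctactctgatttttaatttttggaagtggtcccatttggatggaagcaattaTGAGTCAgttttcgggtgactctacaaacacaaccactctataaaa
Mmp12, upstream start (chr9:7344277-7344396): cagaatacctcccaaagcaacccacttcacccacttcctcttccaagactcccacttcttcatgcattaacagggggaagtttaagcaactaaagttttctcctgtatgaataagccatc
Mmp12, downstream start (chr9:7347254-7347373): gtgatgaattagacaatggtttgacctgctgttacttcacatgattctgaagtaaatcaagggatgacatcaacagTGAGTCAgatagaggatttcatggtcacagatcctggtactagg
The match begins at base -35 from the start of Mmp13, -46 from that of Mmp3 and -44 from the downstream start of Mmp12. Other genes of the cluster hold one too, at -73 for Mmp1a, -93 for Mmp1b, -63 for the upstream start of Mmp7 and -63 for Mmp10, and the first 3 of these genes were listed at 0 in every library. Of 32851 promoter windows, 4.46% hold such a match in the 250 bases before the start. Promoters were matched for 7 of the 10 members, and none was printed for Mmp2, Mmp9 and Mmp19. No match stood in the 250 bases before Mmp14, Timp1, Timp2, Timp3 or the upstream start of Mmp12. The cluster genes Mmp8, Mmp20 and Mmp27 held none either, and Mmp8 and Mmp27 had their highest group means in HFD_IO. Whether a match goes with a higher level was not tested. The Timp1 stretch is shown for comparison, as the inhibitor that rose in HFD against CD.
Timp1 (chrX:20870046-20870165): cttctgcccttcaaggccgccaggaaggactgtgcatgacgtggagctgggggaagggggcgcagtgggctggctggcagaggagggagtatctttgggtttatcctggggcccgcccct

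The neighbours in the cluster had lower levels. Mmp8, the neutrophil collagenase, was at 3.35, 2.96 and 2.06 FPKM in HFD_IO, 1.25, 1.01 and 0.36 FPKM in HFD and 0.34, 0.21 and 0.25 FPKM in CD. Mmp27 was at 4.97, 4.70 and 2.79 FPKM in HFD_IO, 3.67, 2.16 and 1.11 in HFD and 0.84, 0.69 and 0.52 in CD. Both met the minimum of 1 FPKM only through the high fat diet groups, so a difference from CD was built into their selection. Mmp10, stromelysin-2, had 18, 5 and 6 reads in the HFD_IO libraries, 0, 0 and 2 in HFD and none in CD, below the minimum for testing. Mmp1a, Mmp1b, Mmp20 and Mmp7 were listed at 0 in all 9 libraries.

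**Figure D2:**
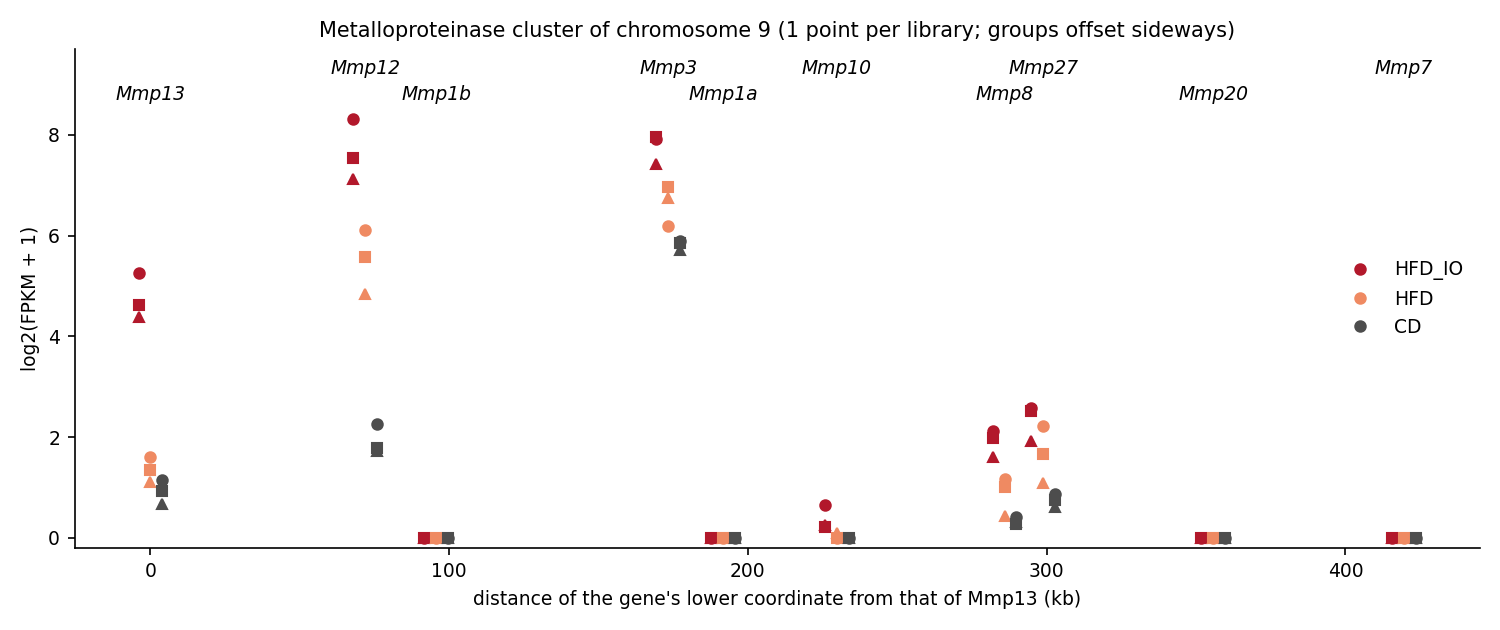
Expression of the 10 metalloproteinase genes of the chromosome 9 cluster (vertical axis, log2 of FPKM + 1) against the distance in kb of each gene's lower coordinate from that of Mmp13, with 1 point per library and the groups offset sideways. Mmp13, Mmp12 and Mmp3 carry nearly all the signal, and Mmp1a, Mmp1b, Mmp20 and Mmp7 lie at 0.

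The gelatinases Mmp2 and Mmp9, which digest denatured collagen and basement membrane collagen, had unlike patterns. Mmp2 (chromosome 8, 92827291 to 92853420), made widely by fibroblasts and smooth muscle cells, was at 114, 108 and 116 FPKM in HFD_IO, 78.7, 68.9 and 82.2 FPKM in HFD and 54.5, 71.1 and 80.4 FPKM in CD. The HFD_IO libraries lay above all others, and HFD and CD overlapped. The change was 0.55 in HFD_IO against HFD (SE 0.15, adjusted p = 0.0233), a call lost without HFD_2 (0.078), HFD_IO_1 (0.0662), HFD_IO_2 (0.051) or HFD_IO_3 (0.0618). It was 0.72 in HFD_IO against CD (SE 0.15, adjusted p = 0.00528) and 0.17 in HFD against CD (95% interval -0.16 to 0.50, adjusted p = 0.383).

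Mmp9 (chromosome 2, 164940780 to 164955850), an enzyme of neutrophil granules, macrophages and osteoclasts, was scarce, with 62 to 456 reads in a library. Its level was 1.86, 7.39 and 4.32 FPKM in HFD_IO_1, HFD_IO_2 and HFD_IO_3, 1.70, 1.05 and 2.17 FPKM in the HFD libraries and 3.10, 2.87 and 3.94 FPKM in the CD libraries. HFD lay below CD without overlap, and HFD_IO spread across both. None of its comparisons passed the test, with -0.72 in HFD against CD (SE 0.34, adjusted p = 0.121) and 0.96 in HFD_IO against HFD (SE 0.34, adjusted p = 0.0642). After rescaling to TPM both passed, at -1.25 (0.0265) and 1.29 (0.0379). Without HFD_IO_1 the iron comparison reached 1.36 (0.0117), and the diet comparison passed at an unchanged size (0.0343). The diet comparison also passed in a fit of only the 2 groups compared. The summed FPKM of 10 neutrophil markers was 28.3, 114 and 67.5 in HFD_IO_1, HFD_IO_2 and HFD_IO_3, 27.6, 24.0 and 24.1 in HFD and 47.0, 8.94 and 12.9 in CD. The HFD_IO libraries thus took the same order in Mmp9 and in these markers, but the HFD and CD libraries did not. The marker sum was highest in HFD_1 and CD_1, and Mmp9 was highest in HFD_3 and CD_3. None of 6 tested markers passed in the deposited scaling, and the part of neutrophils in the result was not tested.

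Mmp14 (ENSMUSG00000000957, chromosome 14, 54431612 to 54445364) encodes MT1-MMP, an enzyme anchored in the cell membrane that cleaves collagen and, with TIMP2, activates proMMP2 at the cell surface. It was at 51.8, 66.4 and 56.2 FPKM in HFD_IO, 24.9, 21.1 and 14.8 FPKM in HFD and 15.2, 16.5 and 19.7 FPKM in CD. The HFD_IO libraries were the 3 highest, and HFD and CD overlapped. Mmp14 rose by 1.50 in HFD_IO against HFD (SE 0.19, adjusted p = 0.00152). In HFD against CD the change was 0.21 (SE 0.19, 95% interval -0.21 to 0.63, adjusted p = 0.399).

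Mmp19 (chromosome 10, 128790910 to 128800824), a secreted enzyme that cuts basement membrane proteins, was at 29.4, 25.5 and 19.9 FPKM in HFD_IO, 14.1, 9.31 and 7.96 FPKM in HFD and 2.80, 3.85 and 3.62 FPKM in CD. The 3 groups were fully separate. It rose by 1.20 in HFD_IO against HFD (SE 0.21, adjusted p = 0.00466) and by 1.34 in HFD against CD (SE 0.21, adjusted p = 0.00196). Tmem198b, which overlaps the end of Mmp19 on the opposite strand, was at 2.78 to 4.67 FPKM in all 9 libraries. Reads of the strands cannot be told apart here, since strand handling is not given in the sources used here.

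Timp1 (ENSMUSG00000001131, chromosome X, 20870166 to 20874735) encodes a secreted inhibitor that injury and inflammation are known to induce. It was at 171, 193 and 172 FPKM in HFD_IO, 146, 162 and 166 FPKM in HFD and 31.7, 22.1 and 24.0 FPKM in CD. Both high fat diet groups lay far above CD, and the lowest HFD_IO library was only slightly above the highest HFD library. Timp1 rose by 2.58 in HFD against CD (SE 0.14, adjusted p = 3.59e-05), a ratio of mean FPKM of 6.10. In HFD_IO against HFD the change was 0.18 (SE 0.14, 95% interval -0.14 to 0.49, adjusted p = 0.374). That comparison passed after quantile normalization (0.49, adjusted p = 0.0301) and with the gene length trend taken out (0.46, adjusted p = 0.0185). Timp1 lies within Syn1, a neuronal gene on the opposite strand, which was listed at 7.08, 5.20 and 5.41 FPKM in HFD_IO, 4.38, 1.87 and 1.59 in HFD and 0.69, 0.86 and 1.08 in CD.

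Timp2, which inhibits metalloproteinases and also takes part in proMMP2 activation, was the most abundant member in every library. It was at 496, 594 and 605 FPKM in HFD_IO, 424, 441 and 458 FPKM in HFD and 274, 392 and 402 FPKM in CD. The groups did not overlap, yet neither the iron comparison (0.35, SE 0.17, adjusted p = 0.151) nor the diet comparison (0.33, SE 0.17, adjusted p = 0.152) passed. In HFD_IO against CD the change was 0.68 (SE 0.17, adjusted p = 0.0144), a call lost without HFD_IO_2 (0.0531), with no filter on low values (0.0577), after rescaling to TPM (0.077) and after quantile normalization (0.0585).

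Timp3, which binds to the matrix and also inhibits ADAM proteases, was at 57.3, 92.1 and 136 FPKM in HFD_IO_1, HFD_IO_2 and HFD_IO_3, 57.4, 59.7 and 57.9 FPKM in HFD and 47.9, 89.2 and 90.0 FPKM in CD. All 3 groups overlapped, and no comparison passed (adjusted p = 0.179 in HFD_IO against HFD, 0.457 in HFD against CD and 0.518 in HFD_IO against CD). CD_1 and HFD_IO_1 were the low libraries of their groups. Timp3 lies within Syn3 on the opposite strand, listed at 0.243 FPKM or less, and Timp2 overlaps Cep295nl, listed at 0.364 to 1.62 FPKM.

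**Figure D3:**
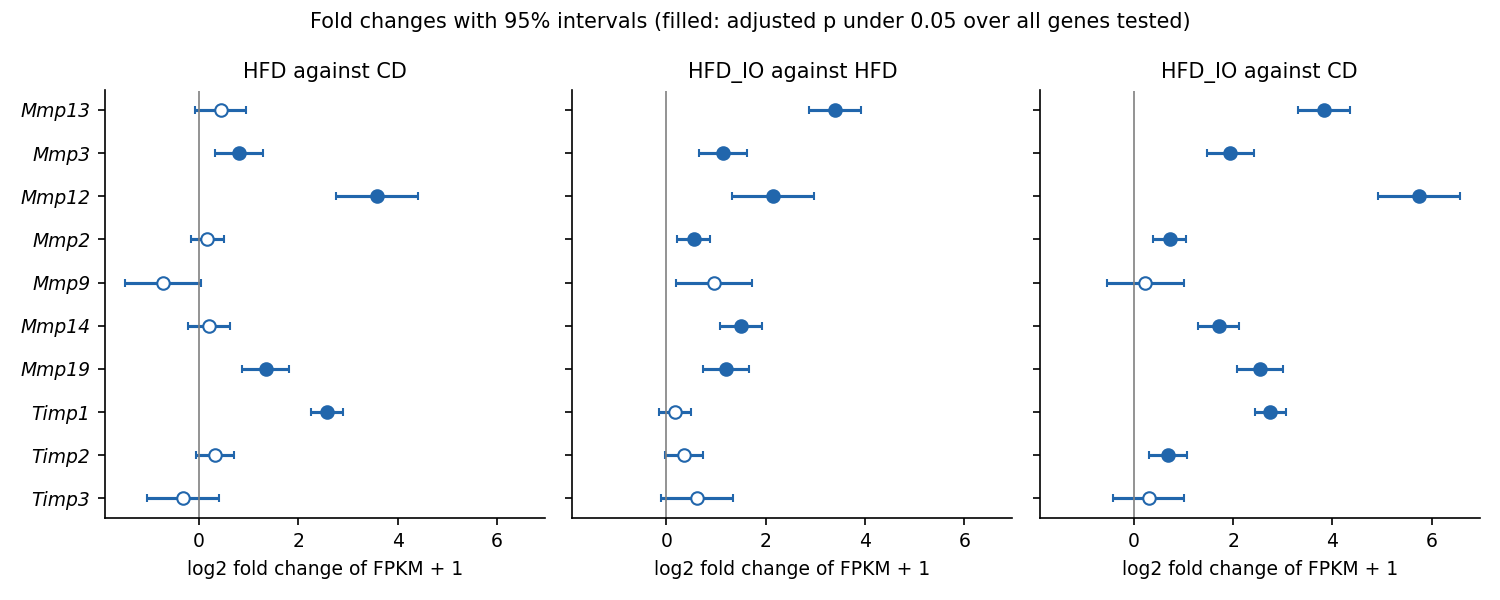
Log2 fold changes of FPKM + 1 (horizontal axes) with 95% intervals for the 10 members in the 3 comparisons, filled where the adjusted p over all 13883 genes was under 0.05. Timp1 moves at 2.58 in HFD against CD and 0.18 in HFD_IO against HFD, and Mmp13 at 0.43 and 3.40.

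Whether a member changed by a different amount in the iron step (HFD_IO against HFD) than in the diet step (HFD against CD) was tested as the difference of both changes in the same fit. The difference was 2.97 for Mmp13 (SE 0.40, adjusted p = 0.00262) and 1.29 for Mmp14 (SE 0.32, adjusted p = 0.0177), so both changed more with iron. For Timp1 it was -2.40 (SE 0.24, adjusted p = 0.0013), a smaller change with iron than with diet. Positive differences were called for 14.2% of all genes and negative ones for 17.0%. The other 7 members did not pass, with Mmp9 at 1.68 (adjusted p = 0.0577) and Mmp12 at -1.44 (adjusted p = 0.111). The call for Mmp14 was lost without HFD_3 (0.89, adjusted p = 0.0614).

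The share of Timp1 in TIMP mRNA was higher in every library of both high fat diet groups than in every CD library. Timp1 made up 23.5%, 21.8% and 18.8% of the summed FPKM of the 4 TIMP genes in HFD_IO, 23.2%, 24.4% and 24.1% in HFD and 8.90%, 4.37% and 4.63% in CD. Timp2 held 66.0% to 68.3% in HFD_IO, 66.2% to 67.4% in HFD and 77.0% to 77.5% in CD, and Timp4 never passed 0.876%. The summed FPKM of the 7 metalloproteinases was 793, 663 and 524 in HFD_IO, 262, 272 and 242 in HFD and 139, 155 and 162 in CD. Divided by the TIMP sum this gave 1.09, 0.752 and 0.571 in HFD_IO, 0.416, 0.409 and 0.351 in HFD and 0.391, 0.306 and 0.312 in CD. The HFD_IO ratios lay above all others, and the HFD and CD ratios overlapped. These sums describe mRNA and not enzyme activity, and no test was made on them. The metalloproteinase sum leaves out the other Mmp genes, while all 4 TIMP genes are counted. The 17 further family genes, Timp4 included, summed to 60.3 to 68.0 FPKM in HFD_IO, 100 to 116 in HFD and 75.6 to 94.2 in CD. With the further Mmp genes added, the gap between HFD_IO and the other groups would be narrower, and that ratio was not computed. Mmp12 formed 40.2%, 27.8% and 26.3% of the metalloproteinase sum in HFD_IO, 26.2%, 17.2% and 11.4% in HFD and 2.70%, 1.59% and 1.42% in CD. In CD the largest share of this sum was that of Mmp2 or Mmp3, which stood at 39.1% and 42.1% in CD_1 and at 49.7% and 31.7% in CD_3. Mmp23, which the sum leaves out, was at 52.0, 52.6 and 57.6 FPKM in CD.

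**Figure D4:**
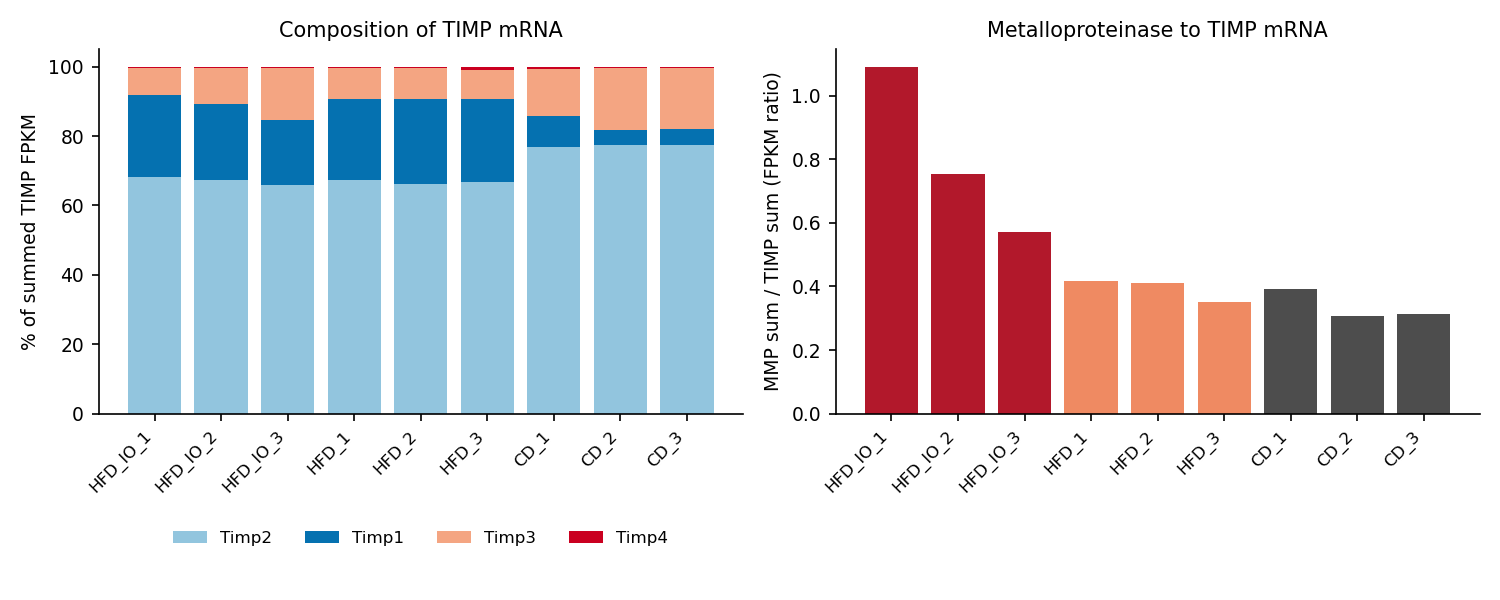
Share of each TIMP gene in the summed TIMP FPKM (left, % per library) and the summed FPKM of the 7 metalloproteinases divided by that of the 4 TIMPs (right, bars from 0). Timp1 is at 18.8% or more in the high fat diet libraries and at most 8.90% in CD, and the ratio is 0.571 or more in HFD_IO and at most 0.416 elsewhere. Other Mmp genes are left out of the ratio.

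Most macrophage markers rose in both steps, while 6 of the 10 members rose with iron and 4 with diet. Of 12 markers, 10 rose in HFD_IO against HFD (median 0.93) and 10 in HFD against CD (median 1.48), and their summed FPKM was 4177 to 7131 in HFD_IO, 2534 to 4494 in HFD and 504 to 585 in CD. None was listed at 0 throughout. The part of macrophage content in the results was not tested. Set against Cd68, a macrophage lysosomal protein, the FPKM ratio of Mmp13 was 0.0884, 0.0618 and 0.0587 in HFD_IO, 0.0136, 0.0115 and 0.0115 in HFD and 0.0524, 0.0428 and 0.0246 in CD. Mmp12 over Cd68 was 0.759, 0.483 and 0.408 in HFD_IO, 0.459, 0.350 and 0.275 in HFD and 0.164, 0.115 and 0.0948 in CD. Mmp14 over Cd68 was 0.124, 0.174 and 0.166 in HFD_IO, 0.167, 0.157 and 0.148 in HFD and 0.663, 0.775 and 0.811 in CD. Of the 10 members, Mmp13 was the only one whose ratio lay higher in HFD_IO than in HFD without overlap. The ratios of 3 members lay lower in HFD_IO without overlap: Mmp2 (0.272 to 0.342 in HFD_IO, 0.515 to 0.823 in HFD), Timp1 (0.407 to 0.51 in HFD_IO, 0.98 to 1.66 in HFD) and Timp2 (1.18 to 1.79 in HFD_IO, 2.85 to 4.59 in HFD). The other 6 overlapped. Cd68 itself rose by 1.58 with iron, while the 12 markers changed by 0.47 (Lyz2) to 1.86 (Cx3cr1) around their median of 0.93. These counts thus hold for Cd68 alone, ratios to other markers can separate other members, and no share over all genes was computed.

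Other cell type lists also moved. Lipid-laden macrophage markers rose in 7 of 10 with iron and in 10 of 10 with diet, and of 5 osteoclast markers tested 2 rose with iron, and 4 rose and 1 fell with diet. Dcstamp, 1 of the 4, was below 1 FPKM in every CD library, so selection helped its rise with diet. Chondrocyte markers, relevant because hypertrophic cartilage makes MMP13, rose in 5 of 10 tested with iron and in 7 with diet, with summed FPKM of 263, 263 and 789 in HFD_IO, 65.8, 176 and 116 in HFD and 34.5, 45.9 and 51.3 in CD. Of the 7 called with diet, 5 were below 1 FPKM in every CD library and met the minimum only through the high fat diet groups, so that count was largely fixed by selection. HFD_IO_3 was the highest library of the chondrocyte list, with Chad at 307 FPKM there, and the lowest HFD_IO library of Mmp13. Every other gene of the list was also highest in HFD_IO_3, except Col10a1, which is named after its values were seen. Col10a1 was at 32.0, 9.20 and 26.4 FPKM in HFD_IO_1, HFD_IO_2 and HFD_IO_3. It was thus highest in HFD_IO_1, as Mmp13 was, but lowest in HFD_IO_2, as Mmp13 was not. Smooth muscle markers fell in 8 of 12 with iron and rose in 3 and fell in 1 with diet, and adventitial fibroblast markers fell in 5 of 12 with iron and rose in 3 with diet. Of 10 endothelial markers, 3 rose with iron and 8 fell with diet. White adipocyte markers fell in 2 of 10 with iron and rose in 3 with diet, and of 6 skeletal muscle markers tested none passed with iron and 2 rose with diet. Tnni2, 1 of these 2, was below 1 FPKM in every CD library, so selection helped its rise. Under TPM scaling the diet counts became 0 rises and 3 falls for smooth muscle and 2 rises and 3 falls for fibroblasts. They became 9 rises and 1 fall for macrophages, 10 falls for endothelium and 1 rise for skeletal muscle. Smooth muscle falls with iron became 6 under TPM scaling, 5 after quantile normalization and 10 with the gene length trend taken out. The part of these cells in the results was not tested.

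The remaining family members did not follow a common direction. Of 17 further Mmp and Timp genes 8 were tested, and 1 rose and 3 fell in HFD_IO against HFD, while 2 rose and 1 fell in HFD against CD. Under TPM scaling 1 rose and 2 fell with iron, and 0 rose and 1 fell with diet. Mmp27, which rose with diet in the deposited scaling, was below 1 FPKM in every CD library, so selection helped that rise. Mmp17, a membrane-anchored enzyme, was at 11.7, 9.32 and 13.4 FPKM in HFD_IO, 24.9, 28.7 and 28.6 in HFD and 7.90, 18.2 and 16.3 in CD. It fell by 1.20 with iron (adjusted p = 0.0113) and rose by 0.98 with diet (adjusted p = 0.0178), the diet call being lost under TPM scaling (0.109) and without HFD_2 (0.0534). Mmp28, epilysin, fell by 1.10 with diet (adjusted p = 0.0053) and changed by 0.38 with iron (adjusted p = 0.223). Mmp23, chosen after its values were seen, was at 28.2, 25.6 and 32.8 FPKM in HFD_IO, 55.2, 55.8 and 69.8 in HFD and 52.0, 52.6 and 57.6 in CD, and it fell by 1.03 with iron (adjusted p = 0.00154).

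Genes that activate or restrain metalloproteinases from outside the families were described as a list of 25, of which 20 were tested. In HFD_IO against HFD 7 rose and 5 fell (median -0.09), and in HFD against CD 10 rose and 2 fell (median 0.52). Under TPM scaling 7 rose and 2 fell with iron, and 9 rose and 3 fell with diet. The lysosomal proteases Ctss, Ctsk, Ctsl and Ctsb changed most in this list, by 4.33, 3.50, 3.08 and 3.00 in HFD_IO against CD, and all 4 also rose with diet. With iron Ctsk rose by 1.53 (adjusted p = 0.000316) and Ctsb by 0.79 (adjusted p = 0.0162), a call lost without HFD_3 (0.0504), HFD_IO_1 (0.057) or HFD_IO_2 (0.056). Ctss and Ctsl did not pass with iron, at 0.93 (adjusted p = 0.0708) and 0.51 (adjusted p = 0.207). Plau and Reck are named after their values were seen. Plau, the urokinase that generates plasmin, was at 39.7, 35.0 and 22.9 FPKM in HFD_IO, 18.7, 13.8 and 8.27 in HFD and 5.67, 4.12 and 4.32 in CD (1.23 with iron, adjusted p = 0.0133). Reck, a membrane-anchored inhibitor of metalloproteinases, was at 14.2, 12.9 and 20.96 FPKM in HFD_IO and 23.7, 24.5 and 28.4 in HFD, and it fell by 0.67 with iron (adjusted p = 0.024). The call for Reck was lost under TPM scaling (0.06), with no filter (0.0574) and without HFD_2 (0.0532), HFD_3 (0.0816), HFD_IO_1 (0.0785) or HFD_IO_2 (0.0796).

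Of 20 transcription factor genes of the AP-1, NF-kB, Ets and Runx groups, 5 rose and none fell in each of HFD_IO against HFD and HFD against CD, with medians of 0.22 and 0.04. Under TPM scaling 6 rose with iron, and 3 rose and 5 fell with diet. Spi1 and Runx1, regulators of myeloid cells, rose with iron by 1.12 and 1.50. With diet Spi1 rose by 1.57, and Runx1 was at 0.52, a value that selection helped, since Runx1 was below 1 FPKM in every CD library and met the minimum through the high fat diet groups. Junb, an AP-1 subunit, rose by 0.74 with iron (adjusted p = 0.047), a call lost without any single HFD_IO library (0.0922 to 0.109), HFD_3 (0.113), CD_1 (0.0535) or CD_3 (0.0522), and with no filter (0.109). Fos and Jun were at 0.47 (adjusted p = 0.27) and -0.10 (adjusted p = 0.766). Runx2, a factor of hypertrophic cartilage and bone known to drive Mmp13 there, was at 1.79, 1.75 and 2.21 FPKM in HFD_IO, 0.70, 0.36 and 0.31 in HFD and 0.42, 0.37 and 0.39 in CD. Its change was 1.01 with iron, but it met the minimum of 1 FPKM only in HFD_IO, so a rise was built into its selection. Runx2 is 1 of the 5 counted as rising with iron. Fos, Jun and Runx2 were chosen after their values were seen.

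Of 18 genes of matrix substrates, 1 rose and 1 fell in HFD_IO against HFD (median 0.01), and 6 rose and 2 fell in HFD against CD (median 0.19). Under TPM scaling 1 rose and 1 fell with iron, and 6 rose and 4 fell with diet. Spp1, osteopontin, rose by 1.96 with iron and 6.17 with diet. Fn1, fibronectin, rose by 1.28 with diet (adjusted p = 0.00991, 0.0604 after quantile normalization) and changed by 0.51 with iron (adjusted p = 0.221). Acan, a cartilage proteoglycan, rose with diet by 1.75 and changed by 0.58 with iron (adjusted p = 0.257). Col2a1, the main collagen of cartilage, was at 17.2, 13.7 and 73.4 FPKM in HFD_IO, 2.98, 16.9 and 6.78 in HFD and 0.00588, 0.0491 and 0.0535 in CD, so it met the minimum only through the high fat diet groups, and its change with iron was 1.72 (adjusted p = 0.0752).

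Likeness of pattern was measured as the root mean square difference of log2(FPKM + 1) over the 9 libraries, each gene centred on its own mean, among 11811 protein-coding genes. Mmp13 was nearest to Slc40a1, the iron exporter ferroportin, at 0.35. Mmp12 was nearest to Lgals3 at 0.41 and Gpnmb at 0.48, both products of lipid-laden macrophages. Mmp3 was nearest to Alox5ap and Pcdhb9 at 0.17 and 0.18, Mmp14 to Il4ra and Shtn1 at 0.09 and 0.14, and Mmp19 to Rnf149 and Sirpa at 0.15 and 0.16. Timp1 was nearest to Lum and F7 at 0.15 and 0.23, Timp2 to Tbc1d2b and Tgfbr2 at 0.05 and 0.06, and Timp3 to Setbp1 and Bahcc1 at 0.18 and 0.19. For the gelatinases, Mmp2 was nearest to Iqsec1 and Zfp703 at 0.06 and 0.09, and Mmp9 to Cyp1b1 and Galnt15 at 0.27 and 0.28. These values share libraries and depth and carry no test, and genes that vary little lie close to many others.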

How the data were processed

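The data are FPKM values of 9 aorta libraries, deposited by the authors in 1 table with the length of each gene. Column purification of RNA (Qiagen) and library preparation by NEBNext are given per the labels' protocols. The submitters' processing notes name HISAT2 and hg38, a human build, but the gene IDs are mouse. GENCODE M21 holds 54409 of the 54532 IDs, and coordinates on GRCm38 were the same for 98.3% of them, all 10 members included. The sources used here name neither the counting tool nor strand handling. Column numbers are not in the sample labels, so columns were assigned to groups alone.

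Reads were recovered from FPKM and gene length, and 100% of values above 0 came out whole within 0.05 of a read. The implied denominators were 0.895 to 1.10 times the recovered reads, so the values are not scaled by plain totals. Replicate pairs differed beyond sampling noise (chi-square per degree of freedom of 5.97 or more). All libraries entered 1 limma 3.58.1 fit (R 4.3.3, trended variance) of log2(FPKM + 1), which understates changes of low genes, with Benjamini-Hochberg adjustment over 13883 genes. The script was tested on simulated data. The members and lists were chosen with earlier results of these data known. Named are the members, up to 4 genes of each list by largest absolute change, and the 2 genes nearest in pattern; some genes these rules name are not reported here. The comparison of both steps, voom on recovered reads, removal of length trends and omission of CD_1 with HFD_3 were added after seeing the data. Alternatives were other pseudocounts, filters and scalings, fits of 2 groups and leaving out each library.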

Additional observations from a re-analysis of the deposited data

How the results depend on the processing

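Of 656 values of members under alternative settings, 616 kept direction and side of the threshold, 16 lost the call, 14 gained it and 10 changed sign. Mmp12, Mmp13, Mmp14 and Mmp19 kept every call in HFD_IO against HFD and HFD_IO against CD, and Mmp12, Mmp19 and Timp1 kept theirs in HFD against CD, under every setting run. The values that changed sign were uncalled in the deposited scaling. In HFD against CD they were Timp2 (-0.0642), Mmp2 (-0.22) and Mmp14 (-0.17) after rescaling to TPM, Timp2 (-0.17) and Mmp2 (-0.20) after quantile normalization, and Mmp2 without CD_1 and HFD_3 (-0.038). In HFD_IO against CD they were Timp3 without CD_1 alone or with HFD_3 (-9.13e-05 in both) and without HFD_IO_3 (-0.00219), and Mmp9 without HFD_IO_2 (-0.13), with single omissions reaching 0.62 for Timp3 and 0.64 for Mmp9. Rescaling and quantile normalization act by construction on all genes at once, and for the omissions fewer samples were tested. For the difference between the iron and diet steps, 3 members were called, and 5 after rescaling to TPM or without CD_1 and HFD_3. Leaving out 1 library at a time gave 2275 to 4944 called genes in HFD_IO against HFD, beside 3969, and 2139 to 5540 for the difference between steps, beside 4334. The planned count models for recovered reads were not run, and voom took their place. No paired analysis was possible because the labels number the aortas singly and give no number shared between groups. Depth limits Mmp10, with at most 18 reads in a library.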
